A study of Mus musculus with 12 samples.

Results

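The matrix metalloproteinases (MMPs) and their tissue inhibitors (TIMPs) were followed as a set of 10 genes, Mmp2, Mmp3, Mmp9, Mmp10, Mmp11, Mmp13, Mmp14, Timp1, Timp2 and Timp3, in mouse colon cancer cells that lack or carry the adhesion molecule CEACAM1. Every probe that the platform annotation assigns to one of these symbols was taken, which gave 18 of the 45281 probes on the array. Of these 18 probes, 12 passed the filter on low signal (detection p under 0.05 on at least 4 of 12 arrays) and 6 did not. The 12 represent 9 of the 10 genes among 9100 tested genes, and Timp3 was not tested because none of its 3 probes passed.

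MMPs are zinc-dependent endopeptidases that cut collagens, gelatin, proteoglycans and other proteins of the extracellular matrix. Most are secreted as inactive proenzymes whose prodomain must be removed, whereas Mmp14 stays anchored in the plasma membrane and Mmp11 is activated by furin inside the cell. TIMPs bind the active site of MMPs and block them, and TIMP2 has a further role as the bridge through which MMP14 activates pro-MMP2 at the cell surface. In solid tumours these enzymes are known for opening basement membranes and stroma to invading cells, and several of them are made mainly by stromal cells.

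The study measured RNA from MC38 cells, a metastatic mouse colon cancer line from the C57BL/6 background, in 3 groups of 4 arrays. The control cells were labelled as devoid of CEACAM1, and the others expressed either its short-tailed isoform (CEACAM1-S) or its long-tailed isoform (CEACAM1-L). All groups were grown for 72 h with 10% serum and selection antibiotics, and biotin-labelled RNA was read on Illumina bead arrays. The labels do not say whether the 4 samples of a group were separate cultures, or whether a line was 1 clone or a pool, so every p-value reflects the spread among these arrays alone, and that spread may be technical.

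Between 14717 and 16071 probes were detected per array, and raw medians were 86.6 to 103 intensity units. The correlation r of 2 arrays was 0.9856 to 0.9935 within a group and 0.9587 to 0.9838 across groups. In each group the 2 arrays with the brightest raw maximum (control 2 and 3, CEACAM1-S 1 and 4, CEACAM1-L 2 and 3, called set A, maxima 30290 to 40614) were set against the other 2 (set B, 17443 to 27138), and differences within each set are given beside most pooled ones. Values below are log2 normalised intensities of 1 probe per gene, compared between groups and never between probes. Ceacam1 itself read 4.92 ± 0.06 in control cells, 8.33 ± 0.39 in CEACAM1-S and 6.55 ± 0.12 in CEACAM1-L (SD, n = 4 each), so both expressing lines stood above control on all 4 arrays, although this probe passed detection on all 4 control arrays too.

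Of 13 colon epithelium markers, 8 (Epcam, Krt18, Krt19, Krt20, Vil1, Cldn3, Muc2 and Lgr5) were detected on no array, and 3 (Cdh1, Krt8 and Cldn4) on at least 4 arrays. The summed level of the 13 was 330 to 358 in control cells, 300.2 to 331 in CEACAM1-S and 448 to 530 in CEACAM1-L, on the linear normalised scale. Cldn4 alone carried the higher sum in CEACAM1-L, with a log2 group mean of 4.52 in control cells and 7.57 in CEACAM1-L. Cldn4, a claudin gene detected on no control array, was at least 6.84-fold higher in CEACAM1-L than in control (adjusted p = 6.56e-11). It was detected on 2 CEACAM1-S and 4 CEACAM1-L arrays, so it passed the detection filter only through CEACAM1-L, where it was high. Krt8 fell by 1.03 in CEACAM1-S (adjusted p = 1.50e-04) and differed by -0.43 in CEACAM1-L (adjusted p = 0.0656), and no difference of Cdh1 passed.

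Of 13 fibroblast and mesenchyme markers, 8 were detected on at least 4 arrays, Vim and Pdgfra on all 12, while Thy1, Fap, Dpt and Lum were detected on none. Their summed level was 5987 to 7988 in control cells, 5828 to 6856 in CEACAM1-S and 6517 to 8364 in CEACAM1-L, and Vim, at log2 levels of 12.44 to 12.64 as group means, makes up most of this sum. Of the 8 tested, 3 rose and none fell in CEACAM1-S against control, namely Col1a1 by 1.47 (adjusted p = 5.37e-06), Col3a1, at least 1.57-fold (adjusted p = 5.65e-04), and Fbln1 by 0.55 (adjusted p = 0.00491). In CEACAM1-L 4 rose and none fell, where 36.2% of all tested genes passed. They were Pdgfra by 0.94 (adjusted p = 5.14e-06), Pdgfrb, at least 1.37-fold (adjusted p = 0.00371), Col3a1, at least 1.36-fold (adjusted p = 0.00325), and Fbln1 by 0.48 (adjusted p = 0.00794). Pdgfrb was detected on 2 CEACAM1-S and 3 CEACAM1-L arrays, and without the latter it would not have passed the detection filter.

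Of the 12 macrophage and neutrophil markers with a probe, 8 were detected on no array (Ptprc, Adgre1, Itgam, Lyz2, Fcgr1, Tyrobp, S100a8 and S100a9). The other 4 were detected, Cd14 on 12 arrays, Elane on 9, and Csf1r and Aif1 on 7 each, and Cd14 fell by 1.01 in CEACAM1-S against control (adjusted p = 6.34e-05). The summed level was 434 to 520 in control cells, 344 to 381 in CEACAM1-S and 386 to 494 in CEACAM1-L. Of 8 endothelium markers, Pecam1, Emcn and Vwf were detected on no array. The summed level was 840.01 to 969 in control cells against 477 to 613 in CEACAM1-S and 422 to 515 in CEACAM1-L. Egfl7, at log2 levels of 8.25 to 9.40 as group means, makes up most of this sum. Of the 5 tested, Cdh5, Flt1 and Egfl7 passed as lower in both lines than in control, and no difference of Kdr or Tek passed. Over all tested genes 11.4% were lower in CEACAM1-S and 18% in CEACAM1-L. Cdh5 and Flt1 were detected on all 4 control arrays, on 1 and 2 CEACAM1-S arrays and on no CEACAM1-L array. Both passed the detection filter only through the control arrays, where they were high, so their calls are not separate from the filter. Egfl7 differed by -0.92 in CEACAM1-S and -1.16 in CEACAM1-L. Whether other cells contributed to the MMP and TIMP differences was not tested beyond these levels, and in bulk RNA fewer cells of a type and less RNA per cell cannot be told apart.

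Against control cells, CEACAM1-L cells had more Mmp10, Mmp11 and Mmp13 and less Mmp2, Mmp9 and Timp1, so 6 of the 9 tested genes passed limma's moderated test at an adjusted p under 0.05. Over all tested genes 36.2% passed in this comparison. The 3 genes that rose each did so by over 2-fold, and 2.8% of all tested genes rose by at least 2-fold and passed. This share was counted for this comparison and direction alone, and the members were chosen with earlier results known. Over the alternative processings the log2 rises went down to 0.68 for Mmp10, 0.90 for Mmp11 and 0.38 for Mmp13, each under 2-fold. CEACAM1-S cells had lower Mmp2, Mmp10 and Timp1 than control and no member that rose, 3 of 9 against 23.6% of all tested genes. Set directly against CEACAM1-S, CEACAM1-L cells had more Mmp10, Mmp11, Mmp13 and Timp1 and less Mmp9, 5 of 9 against 26.2% of all tested genes. By direction, 18.2% of all tested genes were higher and 18% lower in CEACAM1-L than in control cells, 12.2% higher and 11.4% lower in CEACAM1-S than in control cells, and 13.2% higher and 12.9% lower between the lines.

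The median difference of the 9 members was -0.06 in CEACAM1-S against control, where that of all tested genes was -0.01. It was 0.10 against -0.01 in CEACAM1-L against control, and 0.16 against -0.02 in CEACAM1-L against CEACAM1-S. Groups of 4 arrays did not overlap for 3, 5 and 6 members in these comparisons, and for 23.5%, 32.6% and 25.8% of all tested genes. The first and second comparisons share the 4 control arrays, so their values are given side by side and are not independent of each other.

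The signs of the 14 called differences were the same under every alternative processing, but several calls were not. With scaling to the median in place of quantile normalisation, Mmp13 alone passed in CEACAM1-L against control, Mmp10 and Mmp13 passed between the lines, and no member passed in CEACAM1-S against control. Without the detection filter the falls of Mmp2 (adjusted p = 0.0504), Mmp9 (adjusted p = 0.0510) and Timp1 (adjusted p = 0.0772) in CEACAM1-L and of Mmp10 in CEACAM1-S (adjusted p = 0.0842) no longer passed.

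**Figure D1:**
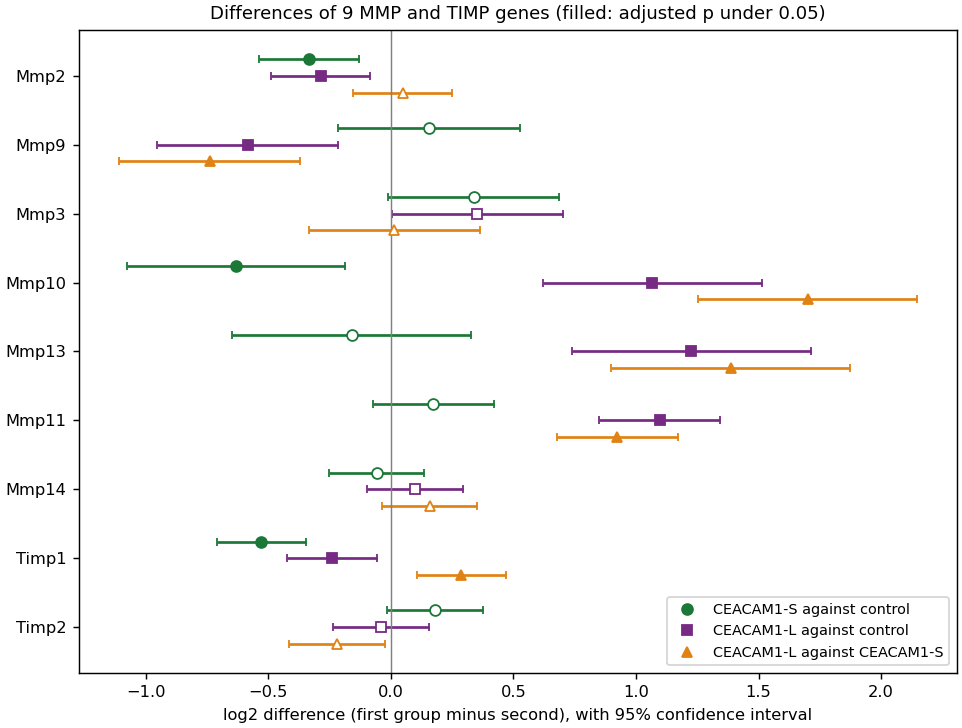
Log2 differences of the 9 tested genes in the 3 comparisons, with 95% confidence intervals on the horizontal axis; filled points passed an adjusted p under 0.05. Mmp10, Mmp11 and Mmp13 lie to the right of 0 in both comparisons of CEACAM1-L, by 0.92 to 1.70, while Mmp14 and Timp2 have no filled point.

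The stromelysins Mmp3 and Mmp10 and the collagenase Mmp13 lie within 238 kb of each other on chromosome 9 (GRCm38.p6), Mmp13 at chr9:7272514-7283333, Mmp3 at chr9:7445822-7455975 and Mmp10 at chr9:7502342-7510242. Mmp11 lies apart at chr10:75923221-75932502. Sequences around the start site, 250 bases before it and 50 after, came from RefSeq on GRCm38.p6 and were found for 8 of the 10 genes. The 4 printed here belong to the 3 genes that rose in CEACAM1-L and to Mmp3, their neighbour, and each reads 5′ to 3′ on the strand of its gene. Capitals mark the AP-1 heptamer (TGAGTCA or its reverse complement TGACTCA) in the chromosome 9 genes and the Sp1 box (GGGCGG) in Mmp11. Their windows are chr9:7272264-7272563 on the plus strand (Mmp13), chr9:7445572-7445871 on the plus strand (Mmp3), chr9:7502092-7502391 on the plus strand (Mmp10) and chr10:75932453-75932752 on the minus strand (Mmp11).
Mmp13: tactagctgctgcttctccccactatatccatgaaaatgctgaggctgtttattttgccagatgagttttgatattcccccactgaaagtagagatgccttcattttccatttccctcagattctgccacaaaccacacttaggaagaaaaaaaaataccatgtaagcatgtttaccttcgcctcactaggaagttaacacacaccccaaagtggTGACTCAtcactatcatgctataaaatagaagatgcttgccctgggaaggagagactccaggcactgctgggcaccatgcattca
Mmp3: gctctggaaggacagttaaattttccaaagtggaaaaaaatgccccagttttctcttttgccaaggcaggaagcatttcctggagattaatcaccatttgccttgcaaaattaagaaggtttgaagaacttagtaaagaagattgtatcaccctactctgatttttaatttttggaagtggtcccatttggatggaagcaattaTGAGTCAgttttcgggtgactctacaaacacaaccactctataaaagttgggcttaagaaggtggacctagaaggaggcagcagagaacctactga
Mmp10: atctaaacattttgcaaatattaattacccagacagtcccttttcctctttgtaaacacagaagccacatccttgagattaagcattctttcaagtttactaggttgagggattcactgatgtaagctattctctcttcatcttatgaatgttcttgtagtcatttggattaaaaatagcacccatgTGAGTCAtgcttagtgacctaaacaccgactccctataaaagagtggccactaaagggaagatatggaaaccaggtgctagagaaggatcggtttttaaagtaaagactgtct
Mmp11: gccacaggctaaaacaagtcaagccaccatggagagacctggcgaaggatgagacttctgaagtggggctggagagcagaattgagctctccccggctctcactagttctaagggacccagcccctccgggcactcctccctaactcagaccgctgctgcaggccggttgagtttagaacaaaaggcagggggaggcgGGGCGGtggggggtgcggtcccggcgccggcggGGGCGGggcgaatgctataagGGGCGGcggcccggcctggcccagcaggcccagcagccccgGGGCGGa

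Each of the chromosome 9 genes held the AP-1 heptamer 1 time, its first base at -35 in Mmp13, -46 in Mmp3 and -63 in Mmp10 counted from the start site. None of the other 5 promoters (Mmp11, Mmp14, Timp1, Timp2 and Timp3) held it, and 5.2% of 32851 mouse promoters of the same length did. The Sp1 box (GGGCGG or its reverse complement CCGCCC) was found 4 times in Mmp11, 2 times each in Mmp14 and Timp3, 1 time each in Timp1 and Timp2, and in 35.7% of all promoters. The Ets box (AGGAAG or CTTCCT) was found in the windows of Mmp3, Mmp13, Mmp14, Timp1 and Timp3 and in 35.4% of all promoters. No 2 of the 21 matches overlapped. These letter matches are a description and not evidence of binding.

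Mmp10, or stromelysin 2, degrades proteoglycans and can activate other pro-MMPs. It read 7.05, 6.94, 7.50 and 7.0 in the control arrays, with CEACAM1-S at 6.02, 7.45, 6.15 and 6.34 and CEACAM1-L at 8.26, 8.22, 8.25 and 8.02. Every CEACAM1-L array was above every other array, whereas CEACAM1-S array 2 lay among the controls and the other 3 CEACAM1-S arrays below them. CEACAM1-L exceeded control by 1.07 ± 0.22 (log2 difference ± SE, 2.10-fold, adjusted p = 3.57e-04) and CEACAM1-S by 1.70 ± 0.22 (3.25-fold, adjusted p = 2.11e-06), the largest difference among the 9 members in any comparison. Within set A these differences were 1.02 and 2.06, and within set B 1.12 and 1.35. On the authors' processed values, which followed the uncorrected log2 intensities closely (r = 0.9957 to 0.9999 per array), they were 0.68 and 0.96 and still passed.

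The fall of Mmp10 in CEACAM1-S against control, by 0.63 ± 0.22 on the log2 scale (adjusted p = 0.0344), depended on single arrays. Without CEACAM1-S array 2 it was -0.95 (adjusted p = 1.06e-04). It no longer passed without control array 3 or without CEACAM1-S array 1, 3 or 4, where it was -0.58 to -0.48. It was -1.04 within set A and -0.23 within set B (adjusted p = 0.705), and on the authors' processed values it was -0.28 (adjusted p = 0.0750).

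Mmp13, or collagenase 3, cuts fibrillar collagens and is the main interstitial collagenase of rodents. Its brightest probe read 4.75, 5.29, 5.07 and 4.48 in control cells, 4.30, 5.35, 4.60 and 4.69 in CEACAM1-S and 6.29, 6.51, 6.24 and 5.44 in CEACAM1-L. All CEACAM1-L arrays were above all others, and the control and CEACAM1-S arrays overlapped close to background, with detection on 3 and 1 of 4 arrays. CEACAM1-L was higher than control by 1.23 ± 0.24 (2.34-fold, adjusted p = 2.12e-04) and than CEACAM1-S by 1.39 ± 0.24 (2.61-fold, adjusted p = 1.01e-04). CEACAM1-S differed from control by -0.16 ± 0.24 (adjusted p = 0.684), and by -0.68 within set A (adjusted p = 0.0286) and 0.36 within set B (adjusted p = 0.571). The difference between CEACAM1-L and control was 1.20 in set A and 1.25 in set B, and that between CEACAM1-L and CEACAM1-S was 1.88 in set A and 0.89 in set B (adjusted p = 0.0860).

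The size of the Mmp13 rise differed with the processing and with the probe. On the authors' processed values it was 0.38 against control and 0.44 against CEACAM1-S, and both still passed. The second Mmp13 probe was detected on 1, 1 and 2 arrays of control, CEACAM1-S and CEACAM1-L, and its difference between CEACAM1-L and control was 0.08 ± 0.17 (adjusted p = 0.783 over all kept probes). The last of the 3 probes was not detected on any array.

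Mmp3, or stromelysin 1, cleaves proteoglycans and basement membrane proteins and activates other pro-MMPs. On the probe used for the gene, control arrays read 4.39, 4.57, 4.64 and 4.89, CEACAM1-S arrays 4.98, 4.97, 4.93 and 4.96, and CEACAM1-L arrays 4.69, 5.08, 5.22 and 4.91. All values lay near background, with detection on 1, 4 and 3 arrays, and no difference passed: CEACAM1-S against control was 0.34 ± 0.17 (adjusted p = 0.162) and CEACAM1-L against control 0.35 ± 0.17 (adjusted p = 0.110). Within set A these were 0.36 (adjusted p = 0.234) and 0.54 (adjusted p = 0.0451, which passed), and within set B 0.31 and 0.16. CEACAM1-L against CEACAM1-S was 0.01 ± 0.17, with 0.18 in set A and -0.15 in set B.

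The second Mmp3 probe read 4.28, 4.53, 4.33 and 4.31 in control cells, 4.84, 4.86, 4.50 and 4.64 in CEACAM1-S and 4.84, 5.45, 5.26 and 5.19 in CEACAM1-L. It was detected on no control array, on 2 CEACAM1-S arrays and on all 4 CEACAM1-L arrays. It thus passed the filter only through the CEACAM1-L arrays, where it was high, so its tests are not separate from the filter. On it CEACAM1-L was at least 1.31-fold above control, set against the lowest detected signal of each control array (adjusted p = 4.65e-04 over all kept probes, where 31.8% passed), and exceeded CEACAM1-S by 0.48 ± 0.17 (adjusted p = 0.0426, where 22% passed). With both probes averaged, Mmp3 was higher in CEACAM1-L than in control by 0.59 (adjusted p = 0.00392), a value with the same limit. The remaining probe was detected on 2 CEACAM1-S arrays and on none of the other groups. Mmp3 and Mmp10 are close paralogs, and whether a probe of 1 also reads the other was not tested because probe sequences were not used here.

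**Figure D2:**
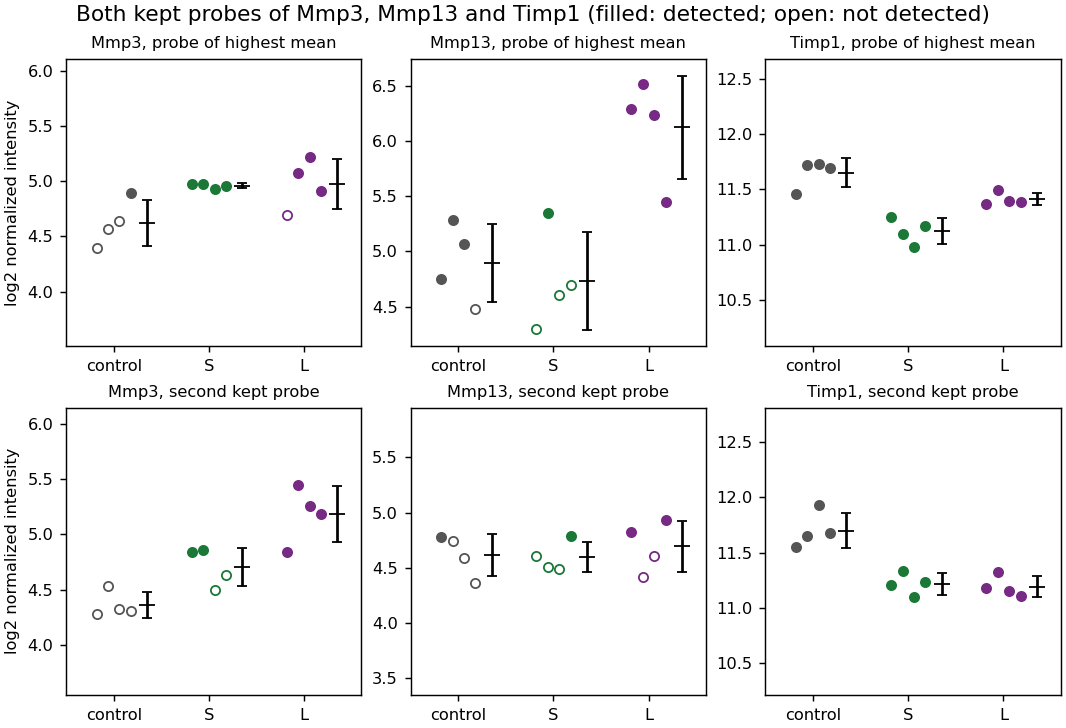
Log2 normalised intensity (vertical axis) of both kept probes of Mmp3, Mmp13 and Timp1 on each of the 4 arrays of control, CEACAM1-S (S) and CEACAM1-L (L); filled points were detected, open points were not, and bars are the mean ± SD. The second Mmp13 probe shows no separation of the groups, and the second Timp1 probe has a mean of 11.19 in CEACAM1-L and 11.22 in CEACAM1-S.

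Mmp11, or stromelysin 3, is known in carcinomas as a product of the stroma around tumour cells. Its arrays read 8.30, 8.11, 8.10 and 8.43 in control cells, 8.41, 8.49, 8.48 and 8.26 in CEACAM1-S and 9.60, 9.37, 9.21 and 9.15 in CEACAM1-L. The CEACAM1-L arrays stood clear of both other groups, which overlapped. The rise over control was 1.10 ± 0.12 (2.14-fold, adjusted p = 1.04e-07) and over CEACAM1-S 0.92 ± 0.12 (1.90-fold, adjusted p = 2.84e-06), while CEACAM1-S against control was 0.17 ± 0.12 (adjusted p = 0.334). Within set A the first 2 differences were 1.19 and 0.96, and within set B 1.01 and 0.89, all 4 of which passed.

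**Figure D3:**
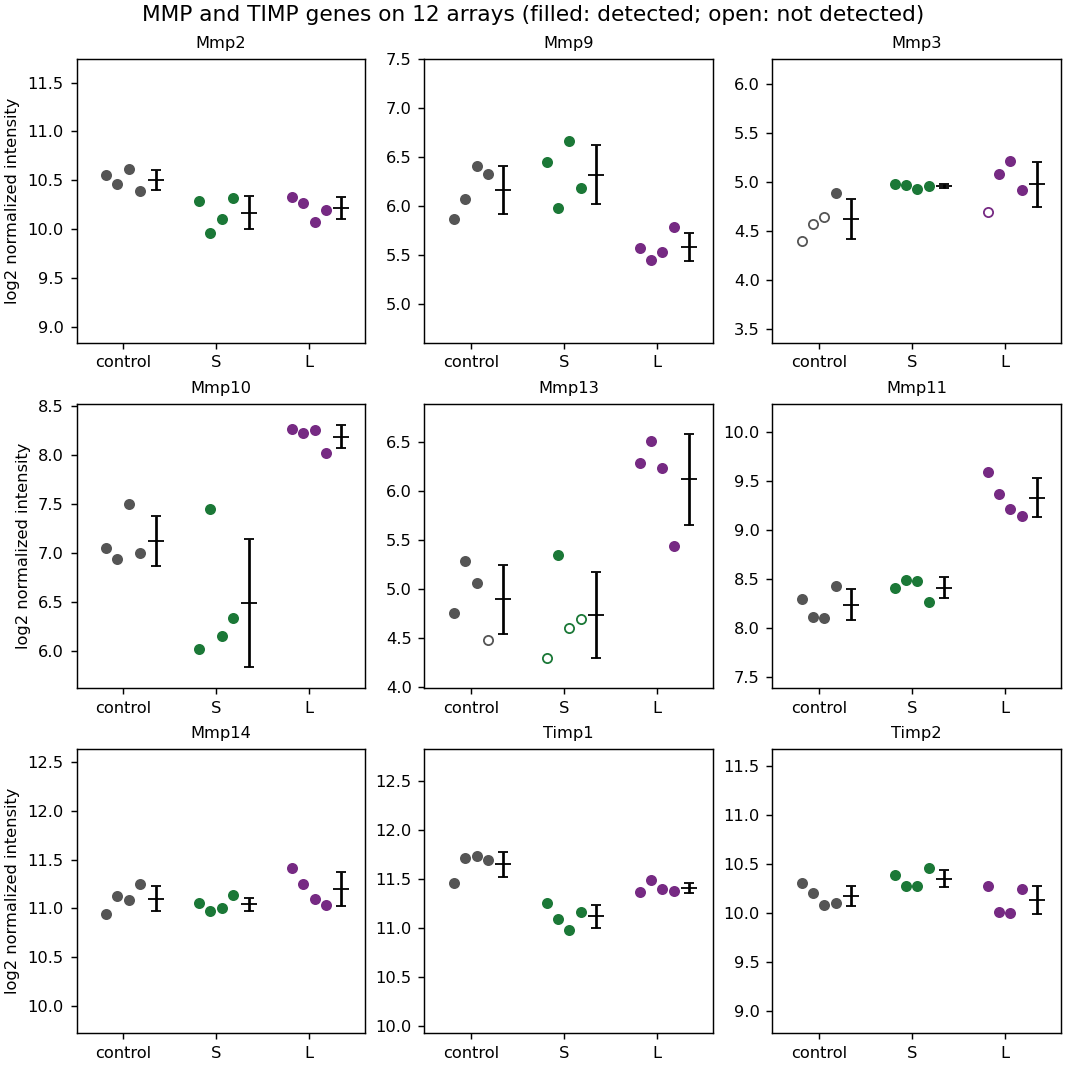
Log2 normalised intensity (vertical axis) of the 9 tested genes on each of the 4 arrays of control, CEACAM1-S (S) and CEACAM1-L (L); filled points were detected, open points were not, and bars are the mean ± SD. The 4 CEACAM1-L arrays lie above every other array for Mmp10, Mmp11 and Mmp13 and below every other array for Mmp9.

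The gelatinases Mmp2 (chr8:92827290-92853421) and Mmp9 (chr2:164940326-164955850) degrade denatured collagen and the type IV collagen of basement membranes. Mmp9 read 5.87, 6.07, 6.40 and 6.32 in control cells, 6.45, 5.98, 6.66 and 6.19 in CEACAM1-S and 5.57, 5.45, 5.53 and 5.78 in CEACAM1-L. The CEACAM1-L arrays lay below all arrays of both other groups. The gene fell by 0.58 ± 0.18 against control (log2, adjusted p = 0.0124) and by 0.74 ± 0.18 against CEACAM1-S (adjusted p = 0.00317), and CEACAM1-S differed from control by 0.15 ± 0.18 (adjusted p = 0.589).

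Within set A the 2 differences of CEACAM1-L in Mmp9 were -0.75 and -0.83, and within set B they were -0.42 (adjusted p = 0.371) and -0.65 (adjusted p = 0.194). On the authors' processed values they were -0.21 and -0.28 and passed.

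Mmp2 read 10.56, 10.46, 10.62 and 10.39 in control cells, 10.29, 9.96, 10.10 and 10.32 in CEACAM1-S and 10.33, 10.27, 10.07 and 10.20 in CEACAM1-L. All control arrays were above all arrays of both lines, which overlapped each other. It fell by 0.33 ± 0.10 in CEACAM1-S (adjusted p = 0.0146) and by 0.29 ± 0.10 in CEACAM1-L (adjusted p = 0.0247), and the lines differed by 0.05 ± 0.10 (adjusted p = 0.779). The first call was lost without control array 3 (-0.30) or CEACAM1-S array 2 (-0.27), and the second without control array 3 (-0.25) or CEACAM1-L array 3 (-0.24). In sets A and B the first was -0.23 (adjusted p = 0.124) and -0.44 (adjusted p = 0.0683), and the second -0.37 (adjusted p = 0.00775) and -0.21 (adjusted p = 0.398).

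Mmp14 (chr14:54431598-54442456) encodes the membrane-type MMP that activates pro-MMP2. It was bright in every group, between 10.94 and 11.25 over the control arrays, 10.98 and 11.13 over the CEACAM1-S arrays and 11.03 and 11.42 over the CEACAM1-L arrays. The 3 groups overlapped and no difference passed. CEACAM1-L against control was 0.10 ± 0.09, with a 95% confidence interval of -0.10 to 0.29, and CEACAM1-S against control was -0.06 ± 0.09. CEACAM1-L against control was 0.067 within set A and 0.13 within set B, and CEACAM1-S against control -0.013 and -0.10. CEACAM1-L against CEACAM1-S was 0.16 ± 0.09 (adjusted p = 0.24), and 0.079 and 0.24 within the sets. A second probe was detected on no array.

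Timp1 (chrX:20870166-20874737) encodes a secreted inhibitor of most soluble MMPs. The probe used for the gene read 11.46, 11.72, 11.73 and 11.70 in control cells, 11.25, 11.09, 10.98 and 11.17 in CEACAM1-S and 11.37, 11.49, 11.40 and 11.38 in CEACAM1-L. CEACAM1-S arrays were the lowest on this probe, below all others, and CEACAM1-L lay between, overlapping control through control array 1 alone. CEACAM1-S fell by 0.53 ± 0.09 against control (adjusted p = 7.35e-05), by 0.51 within set A and by 0.54 within set B. CEACAM1-L fell by 0.24 ± 0.09 against control (adjusted p = 0.0358) and was above CEACAM1-S by 0.29 ± 0.09 (adjusted p = 0.0171).

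The 2 Timp1 probes disagreed on CEACAM1-L. On the second probe, CEACAM1-S fell by 0.48 ± 0.09 (adjusted p = 5.27e-04 over all kept probes, where 19.1% passed) and CEACAM1-L by 0.51 ± 0.09 (adjusted p = 1.74e-04), and the lines differed by -0.02 ± 0.09 (adjusted p = 0.892). Both probes thus placed both lines below control, and the difference between the lines was present on 1 of them. On the first probe the call of CEACAM1-L against control was lost without control array 2, 3 or 4 or CEACAM1-L array 1, 3 or 4 (adjusted p up to 0.0969), and that against CEACAM1-S without CEACAM1-S array 3 (0.24) or CEACAM1-L array 2 (0.26). In sets A and B the difference from control was -0.28 and -0.20 (adjusted p = 0.382), and that from CEACAM1-S 0.23 (adjusted p = 0.0576) and 0.34 (adjusted p = 0.150).

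Timp2 (chr11:118301061-118355411), the TIMP that takes part in pro-MMP2 activation, read 10.30, 10.20, 10.08 and 10.10 in control cells, 10.39, 10.28, 10.27 and 10.46 in CEACAM1-S and 10.27, 10.01, 10.00 and 10.24 in CEACAM1-L. The CEACAM1-S arrays were all above the CEACAM1-L arrays, by little. No difference passed: CEACAM1-S against control was 0.18 ± 0.10 (adjusted p = 0.187), CEACAM1-L against control -0.04 ± 0.10 (adjusted p = 0.798) and CEACAM1-L against CEACAM1-S -0.22 ± 0.10 (adjusted p = 0.0928). The values within the sets were unlike for this gene, and whether the sets differ was not tested. Within set A, CEACAM1-S exceeded control by 0.28 (adjusted p = 0.0459) and CEACAM1-L fell below CEACAM1-S by a difference of -0.42 (adjusted p = 0.00303), both past the threshold. Within set B the same differences were 0.08 (adjusted p = 0.828) and -0.02 (adjusted p = 0.964), and CEACAM1-L against control was -0.13 in set A and 0.056 in set B. With array weights CEACAM1-L against CEACAM1-S was -0.28 and passed (adjusted p = 0.0153).

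Timp3 (chr10:86300412-86349505) encodes the TIMP that binds to the extracellular matrix. Its brightest probe read 4.59, 4.59, 4.66 and 4.67 in control cells, 5.06, 5.16, 4.75 and 4.89 in CEACAM1-S and 4.68, 4.61, 4.62 and 4.54 in CEACAM1-L. It was detected on 3 CEACAM1-S arrays and on no array of the other groups, and all 4 CEACAM1-S arrays were the highest. CEACAM1-S was at least 1.12-fold above control and at least 1.13-fold above CEACAM1-L, with no test because the probe did not pass the filter. The other Timp3 probes were detected on 1 array and on none.

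On chromosome 9, 18 genes with a probe have any part within 1 Mb of the stretch from Mmp13 to Mmp10, and 8 of them were tested, 5 of these being no members. Mmp1a, an interstitial collagenase gene between Mmp3 and Mmp10, did not differ past the threshold in any comparison (-0.24, -0.30 and -0.05). Mmp7, Mmp8, Mmp12, Mmp20 and Mmp1b in the same cluster were detected on no array. Beyond the MMP genes, Birc2, which encodes an inhibitor of apoptosis, rose by 0.50 in CEACAM1-S (adjusted p = 0.0110) and 0.56 in CEACAM1-L (adjusted p = 0.00303). Yap1, the Hippo pathway co-activator, rose by 0.86 in CEACAM1-S (adjusted p = 5.96e-05) and 0.48 in CEACAM1-L (adjusted p = 0.00872). Dcun1d5, a factor for cullin neddylation, differed by -0.47 between CEACAM1-L and CEACAM1-S (adjusted p = 0.0261), and no difference of Dync2h1, a motor subunit of cilia, passed.

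**Figure D4:**
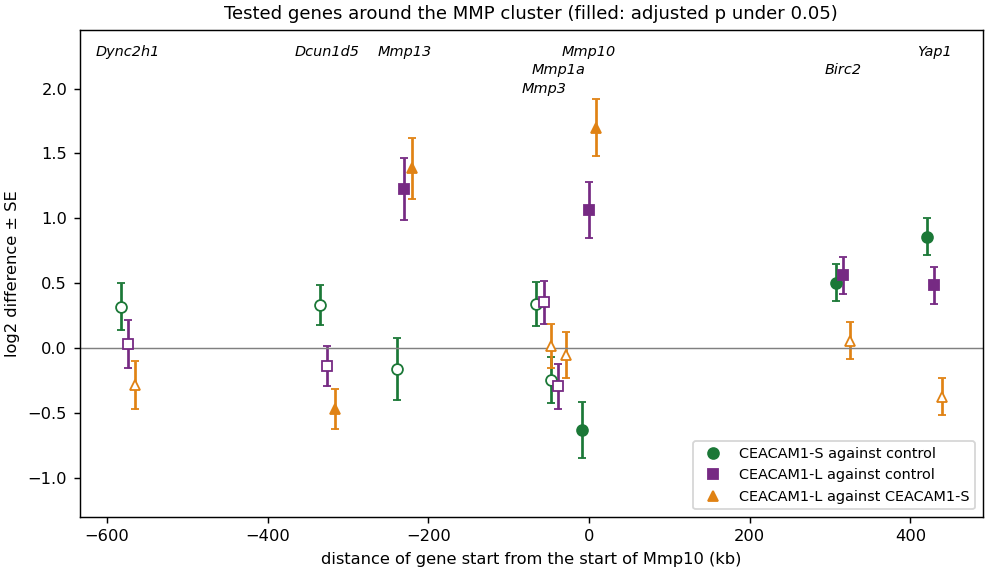
Log2 differences ± SE (vertical axis) of the 8 tested genes around the chromosome 9 MMP cluster, by the distance of the gene start from that of Mmp10 in kb (horizontal axis); filled points passed an adjusted p under 0.05. Mmp13 and Mmp10 are high in CEACAM1-L, while Mmp3 and Mmp1a between them have no filled point.

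Of 17 further MMP and TIMP4 genes, 15 had a probe and 4 were tested, Mmp1a, Mmp23, Mmp24 and Mmp28. None passed in CEACAM1-S against control, where Mmp1a had the lowest p (difference -0.24, adjusted p = 0.355). In CEACAM1-L, Mmp23, a membrane-anchored MMP, rose by 0.55 against control (adjusted p = 0.00451) and 0.57 against CEACAM1-S (adjusted p = 0.00489). Mmp24, a membrane-type MMP of neural tissue, fell by 0.55 (adjusted p = 0.00212) and 0.37 (adjusted p = 0.0406).

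Among the enzymes and surface proteins that activate or anchor MMPs, 10 of 23 genes with a probe were tested. In CEACAM1-S none rose and 4 fell against control, led by Plaur, the urokinase receptor (-1.05, adjusted p = 8.26e-06), Cd44, the hyaluronan receptor (-0.96, adjusted p = 6.61e-09), and Furin, the convertase that activates Mmp11 and Mmp14 (-0.73, adjusted p = 8.63e-06). In CEACAM1-L 1 rose and 5 fell, led by Plau, urokinase (-1.22, adjusted p = 3.76e-07), Cd44 (-0.60, adjusted p = 4.98e-06) and Plaur (-0.57, adjusted p = 0.00377). Between the lines, Plau was lower in CEACAM1-L by a difference of -0.79 (adjusted p = 2.17e-04), and Plaur and Furin were higher by 0.49 and 0.47 among 3 that were higher and 1 that was lower. The medians of the list were -0.20, -0.23 and 0.06 in the 3 comparisons. Of the list 40%, 60% and 40% passed, beside 23.6%, 36.2% and 26.2% of all tested genes.

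Of the ADAM and ADAMTS proteases, relatives of the MMPs that shed surface proteins or cut proteoglycans, 8 of 18 with a probe were tested. Adamts1 fell in CEACAM1-S (-0.67, adjusted p = 0.0136), the 1 call there. In CEACAM1-L, Adamts7 rose by 0.94 (adjusted p = 0.00104), Adam15 by 0.52 (adjusted p = 0.00188) and Bmp1, the procollagen C-proteinase, by 0.35 (adjusted p = 0.00998), and none fell. Against CEACAM1-S, Adamts7 was higher by 0.67 and Bmp1 by 0.39. The medians were 0.14, -0.01 and 0.14. Of the list 12.5%, 37.5% and 25% passed in the 3 comparisons, beside 23.6%, 36.2% and 26.2% of all tested genes.

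Of the cathepsins and cystatins, lysosomal proteases and their inhibitors, 10 of 18 were tested. Cst6, which encodes cystatin E/M, fell by 1.50 in CEACAM1-S (adjusted p = 3.00e-06) and by 1.36 in CEACAM1-L (adjusted p = 5.76e-06). Its signal in these lines was near background, with detection on 2 and 1 of 4 arrays, which limits both sizes. In CEACAM1-S the other call was Lgmn, legumain, a target of cystatin E/M, at 0.38 (adjusted p = 0.00843). In CEACAM1-L 4 rose, among them Ctsa by 0.70 (adjusted p = 1.59e-04) and Cstb by 0.36 (adjusted p = 0.00836), and these 2 were also higher than in CEACAM1-S, by 0.52 and 0.36. Lgmn rose in CEACAM1-L too, by 0.31 (adjusted p = 0.0194), and the lines differed in it by -0.07 (adjusted p = 0.696). The medians were 0.07, 0.17 and 0.13.

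All 17 AP-1, Ets, NF-kB and related transcription factors with a probe, known from other work as regulators of MMP genes, were tested. In CEACAM1-S 1 rose and 7 fell, led by the AP-1 genes Fosb (-1.25, adjusted p = 1.47e-04), Jun (-1.20, adjusted p = 2.72e-08) and Fos (-1.01, adjusted p = 0.00650). The 1 that rose was another AP-1 gene, Fosl2 (0.77, adjusted p = 5.96e-05). In CEACAM1-L 2 rose and 10 fell, led by Snai2, a repressor of epithelial genes (-1.74, adjusted p = 7.29e-10), Fos (-1.46, adjusted p = 1.14e-04) and Jun (-1.31, adjusted p = 3.15e-09). Fos was near background there, with detection on 2 of 4 CEACAM1-L arrays. The 2 that rose were Fosl2 (0.49, adjusted p = 0.00390) and Twist1 (0.52, adjusted p = 0.00773). Between the lines 2 were higher and 4 lower in CEACAM1-L, the lower ones led by Snai2 (-1.22), Relb (-0.61) and Ets1 (-0.61). The medians of the list were -0.36, -0.43 and -0.11.

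**Figure D5:**
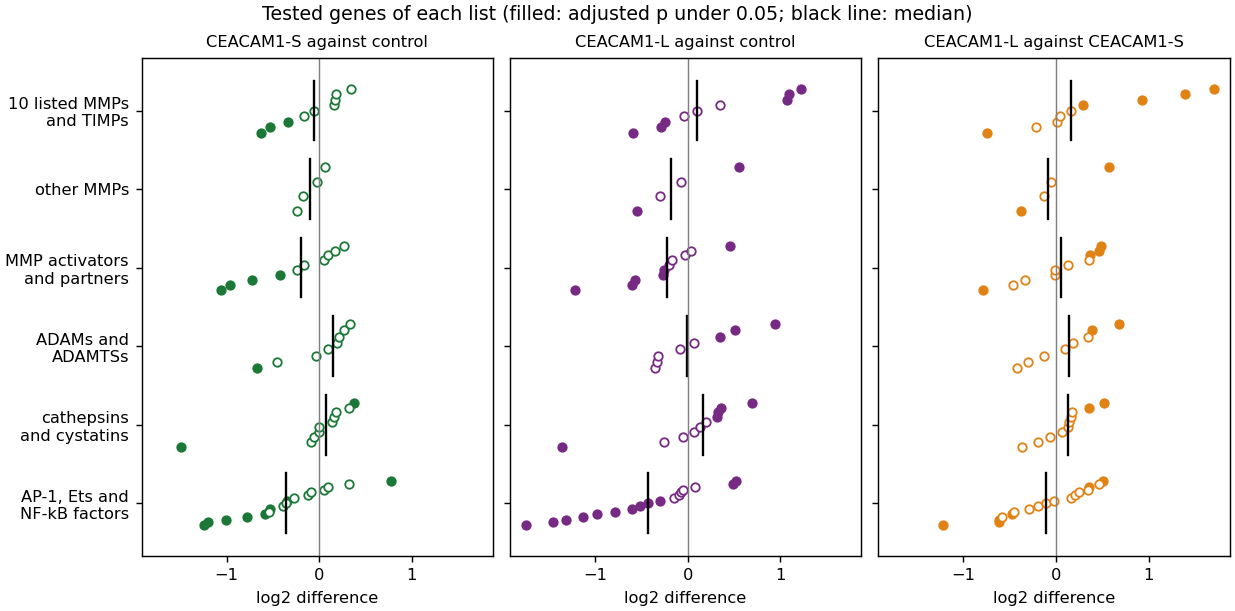
Log2 differences (horizontal axis) of the tested genes of each list in the 3 comparisons, 1 point per gene; filled points passed an adjusted p under 0.05 and the black line is the median. The transcription factor list lies mostly left of 0 against control, with medians of -0.36 and -0.43, and the MMP and TIMP members lie on both sides in CEACAM1-L.

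Over the 12 arrays, the genes whose values followed a member most closely were found by Pearson's r, as a description in which the 3 groups shape every r. Mmp10 was followed most closely by C2, a complement gene (r = 0.98), and Kdm7a, a histone demethylase gene (r = 0.97), Mmp11 by Layn (r = 0.97) and Akr1c18 (r = 0.97), and Mmp13 by Scarb1, the HDL receptor gene (r = 0.97), and Nhlrc3 (r = 0.96). C2 differed by -1.31 in CEACAM1-S and 2.66 in CEACAM1-L against control, and Layn, a hyaluronan receptor gene, by 0.50 and 1.79. Timp1 was followed by the AP-1 gene Junb (r = 0.97) and Rgs16 (r = 0.96), and Junb differed by -0.78 and -0.43, the same order of groups as the first Timp1 probe. Mmp9 was followed by Mrpl3 and Sgms1 (both r = 0.93) and Mmp2 by Zfp397 and Heatr5a (both r = 0.93).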

How the data were processed

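RNA from 12 samples in 3 groups of 4 was read on Illumina bead arrays. The deposited table holds, per the file headers, non-normalised bead intensity and a detection p-value for every probe on each array. The authors' processed table holds log2 values of the same arrays, made with lumi 2.6.0 per the submitters' processing notes. Groups follow the sample titles. The members and lists were chosen with earlier results of these data known.

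Intensities were background-corrected by normexp with detection p-values (offset 16), quantile normalised and log2 transformed by neqc in limma 3.58.1 (R 4.3.3). Probes with detection p under 0.05 on at least 4 of 12 arrays were kept (16330), and each of the 9100 tested genes is its kept probe with the highest mean. Platform annotation named 34885 of 45281 probes by 1 symbol, 18 by several and 10378 by none. A model with a mean for each group was fitted over the 12 arrays (lmFit, then eBayes with a trend, two-sided), and p-values were adjusted by Benjamini-Hochberg over all tested genes (threshold 0.05). Probe-level adjusted p-values are over all kept probes.

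Named genes are all members, per list and comparison up to 3 called genes by size of difference (the lowest p where none passed), the 2 most similar genes per called member, and the tested genes within 1 Mb of the chromosome 9 cluster. Fosl2, Twist1 and the markers given with a difference were named after their values were seen. Positions and promoters are RefSeq's on GRCm38.p6. The number of arrays, 4 per group, limits the precision. Alternatives covered background, scaling, filter, probe choice, variance model, array weights, blocks, array set and leaving out each array. The procedure was tested on simulated data.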

Additional observations from a re-analysis of the deposited data

Results flagged for a closer look

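Among the 4 control arrays, array 1 read 11.46 for the main Timp1 probe, apart from the other 3 by 0.865 of the group's range, past Dixon's 95% critical value. Chance alone marks about 1 in 20 groups, and 36 groups were examined.

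CEACAM1-L and CEACAM1-S cells differed by limma's direct test in 5 of the 9 tested member genes, where 26.2% of all tested genes passed. Ceacam1 itself differed by -1.78 between CEACAM1-L and CEACAM1-S. Whether the isoform, the Ceacam1 level or the line accounts for the differences was not tested. The log2 differences were -0.74 for Mmp9, 1.70 for Mmp10, 0.92 for Mmp11, 1.39 for Mmp13 and 0.29 for Timp1, the last on 1 of 2 probes.

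Some signal lay in probes that no comparison used. An Mmp3 probe was detected on 2 CEACAM1-S arrays and a Timp3 probe on 3, and neither was detected on a control array. No further test was made of either.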

How the results depend on the processing

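Among 14 called differences of single genes, recomputed 362 times, the sign was the same in all 362 and 313 passed; 13 uncalled ones were recomputed 331 times and 323 did not pass. Mmp10 between the lines passed in all 26 recomputations and Mmp13 in CEACAM1-L against control in all 25. Scaling to the median without quantile normalisation left 0, 1 (Mmp13) and 2 (Mmp10 and Mmp13) members past the threshold in CEACAM1-S against control, CEACAM1-L against control and CEACAM1-L against CEACAM1-S, instead of 3, 6 and 5. Calls over all genes were then 276, 644 and 295 instead of 2148, 3290 and 2382, with 39.0% and 42.0% of the calls of CEACAM1-L against control and against CEACAM1-S on the higher side instead of 50.2% and 50.5%. The median difference of all genes under that scaling was -0.03, -0.11 and -0.11, where it had been -0.01, -0.01 and -0.02, and relative to it Mmp10 in CEACAM1-L against control was 1.04 and Mmp11 1.06. Set B alone gave 1, 3 and 2 members, from 2 arrays per group, and 893, 1678 and 677 calls over all 9100 genes. With no detection filter, CEACAM1-L against control had 3 members and 2803 calls over all genes, with 19057 genes tested. Leaving out each array gave 1 to 3, 4 to 6 and 4 to 5 members. The 1 was without control array 3, where CEACAM1-S against control had 1818 calls over all genes.

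Reversals occurred in uncalled differences. Mmp13 in CEACAM1-S against control was 0.36 in set B. In CEACAM1-L against control, Mmp14 was -0.066 under median scaling (0.05 relative to the median of all genes) and Timp2 was 0.056 in set B and -0.086 to 0.0046 on leaving out arrays. Between the lines, Mmp2 was -0.081 under median scaling, -0.014 with array weights, -0.14 in set A and -0.022 to 0.099 on leaving out arrays. Mmp3 there was -6e-04 under median scaling, -0.0019 on the authors' values, -0.15 in set B and -0.067 to 0.11 on leaving out arrays. The cause of these changes was not tested.

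With the replicate number as a block, 3, 5 and 5 members passed, and Timp1 in CEACAM1-L against control was lost (adjusted p = 0.0553). Over all genes the block gave 1972, 3154 and 2250 calls. Deviations of same-numbered arrays correlated over 0.1 in 1 of 12 pairs, and 0 of 12 arrays matched their own number best, so the numbers were not taken as a pairing. Deviations did follow the array set, at 0.041 to 0.26 in the 24 same-set pairs and -0.27 to -0.034 in the 24 others. Deviations from a group mean sum to 0, so the values of the 24 others largely follow from those of the same-set pairs. The sets came from the raw maxima of these arrays, and no label names a batch. The main model has no term for the set. With the set as a block, 3 members passed in CEACAM1-S and 6 in CEACAM1-L against control. Over all genes that block gave 2493, 3680 and 2768 calls in the 3 comparisons. Signal near background limits Mmp3, Mmp13 and Timp3.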
